A study of Homo sapiens with 6 samples.

Results

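The genes described here encode the hemidesmosome, the laminin chains it binds and the other laminin and collagen receptors of epithelial cells. There are 9 of them among the 25442 genes of the deposited RNA-seq table, and each was found there by its symbol in a row of its own: ITGA6, ITGB4, PLEC, DST, LAMA3, LAMB3, LAMA5, ITGA3 and ITGA2. They were measured in YAPC cells, a human pancreatic ductal adenocarcinoma line that the study uses as a classical subtype model. The YAPC-iGLI2 cells (3 libraries) carried the Dox-inducible retroviral vector pRetroX-Tight-Puro with Flag-tagged human GLI2, and the YAPC-iEV cells (3 libraries) carried the same vector empty. The name of the deposited table marks the cells as carrying the rtTA transactivator, and both groups were kept for 6 days in doxycycline (Dox), so Dox itself does not differ between them. Whether the cells were clones or pools, and whether replicates came from separate cultures, is not given in the sources used here, so p-values measure the spread between these libraries, which may be technical.

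The hemidesmosome is the junction by which an epithelial cell holds on to its basement membrane. Integrin α6β4 (ITGA6 and ITGB4) spans the membrane, binds laminin-332 outside and is tied by the plakins plectin (PLEC) and dystonin (DST) to keratin filaments inside. Laminin-332 is a trimer in which LAMA3 encodes the α3 and LAMB3 the β3 chain. Integrins α3β1 and α2β1 bind laminin and collagen without hemidesmosomes and are tied to actin, and the α5 chain (LAMA5) forms other laminin trimers of epithelial basement membranes.

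Values are FPKM, the number of fragments scaled by transcript length and by library size, so levels can be compared between genes, apart from the GC trend described below. All 9 genes entered the test, for which the mean over the libraries had to reach 1 FPKM. GLI2 was between 0.344 and 0.466 FPKM in the iEV libraries and rose to 94.5, 207 and 195 FPKM in the iGLI2 libraries 1, 2 and 3, as their labels say. Total FPKM was between 981344 and 1082687 in iEV and between 803149 and 889559 in iGLI2 libraries; the number of reads behind a value is unknown. Of 6 epithelial markers, EPCAM, CDH1, KRT7 and KRT19 were expressed, and KRT8 and KRT18 are listed at 0 in every library, which is not read as absence. Summed levels were between 1.51 and 1.63 FPKM in iEV and between 2.4 and 3.1 FPKM in iGLI2 libraries for 8 fibroblast markers (DCN at 0 throughout), between 13.6 and 17.7 and between 8.72 and 17.1 FPKM for 6 immune markers, and at most 0.599 FPKM for 4 endothelial markers. The fibroblast sum was nearly all COL1A1, at 1.54, 1.38 and 1.29 FPKM in iEV and 2.28, 2.98 and 2.81 FPKM in iGLI2 replicates 1, 2 and 3. The immune sum was nearly all LYZ and CD68. The other fibroblast and immune markers had a mean under 1 FPKM. The part of such cells in the results was not tested.

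Replicate 1 stood apart in both groups, most in iGLI2, and the difference followed the GC content of the transcripts. Genes were split by GC content into 5 bins of equal size. In the bin with the highest GC content, the median difference of replicate 1 from the mean of replicates 2 and 3 was -0.283 in iGLI2 and -0.061 in iEV libraries, on the log2(FPKM + 1) scale. In the bin with the lowest it was 0.153 and 0.075. Results for the 9 genes are therefore also given without replicate 1, or with a trend on GC content removed from each library, where that changes a call.

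In iGLI2 cells 5 of the 9 genes rose, ITGB4, ITGA3, ITGA2, ITGA6 and LAMB3, and 1 fell, LAMA3 (limma, adjusted p under 0.05 over the 12493 genes tested). LAMA5, PLEC and DST did not pass. Over all genes tested 21.9% passed, 10.1% as higher and 11.8% as lower. The median log2 fold change was 0.76 for the 9 genes and -0.015 for all genes tested. In 7 of the 9, every iGLI2 library lay above every iEV library, and in 1 below; of all genes tested 42.0% did so either way, 19.2% above and 22.8% below. Of all genes called, 46% were higher in iGLI2 cells, and 59.4% when small RNA genes were left out and the libraries rescaled; no gene of the 9 turned its direction under that scaling. Since the RNA comes from whole cultures, fewer cells that express a gene and less RNA per cell cannot be told apart.

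**Figure D1:**
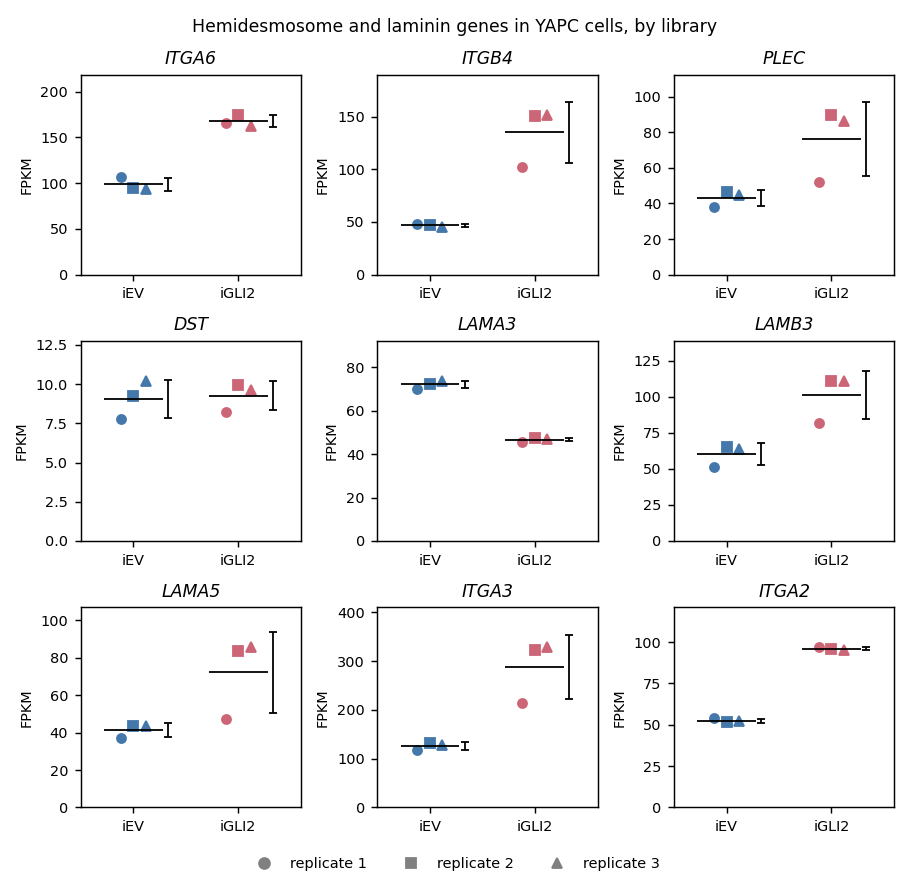
FPKM of the 9 genes (vertical axes, from 0) in the 3 iEV and 3 iGLI2 libraries; symbols mark replicates, bars the mean and whiskers the SD over 3 libraries. ITGA6, ITGA2 and LAMA3 are tight within groups, while replicate 1 of iGLI2 lies below replicates 2 and 3 for ITGB4, PLEC, LAMB3, LAMA5 and ITGA3.

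ITGB4 had the largest change of the 9. It encodes integrin β4, whose long cytoplasmic part binds plectin and which pairs with integrin α6 alone. Its locus is chr17:73717516-73753899 in hg19, on the plus strand. It stood at 47.9, 47.1 and 45.4 FPKM in iEV replicates 1, 2 and 3 and at 102, 151 and 152 FPKM in iGLI2 replicates 1, 2 and 3. The groups do not overlap, and iGLI2 replicate 1 lies between the iEV libraries and the other iGLI2 libraries. The mean rose 2.88-fold, to 135 ± 28.8 FPKM in iGLI2 against 46.8 ± 1.28 FPKM in iEV cells (SD, n = 3 each; log2 fold change 1.48, standard error (SE) 0.16, limma adjusted p = 0.00258). It ranked 241 from the top of the 12493 genes tested. Without iGLI2 replicate 1 the log2 fold change was 1.67, the highest of those with a library left out.

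ITGA6 encodes integrin α6, the partner of β4 in the hemidesmosome and of β1 elsewhere, at chr2:173292314-173371181 on the plus strand. Its values were 107, 95.1 and 93.8 FPKM in iEV and 166, 175 and 163 FPKM in iGLI2 replicates 1, 2 and 3. The iGLI2 libraries were all higher, and replicate 1 did not stand apart among them. ITGA6 rose 1.7-fold, to 168 ± 6.23 FPKM in iGLI2 against 98.6 ± 7.17 FPKM in iEV cells (SD, n = 3 each; log2 fold change 0.76, SE 0.074, limma adjusted p = 0.0016). Each of 3 annotated antisense genes shares at most 2.65% of its exon bases, and the counting is not stated to use strand.

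Neither of the plakins of the hemidesmosome passed the test. PLEC encodes plectin, the plakin that binds β4 (chr8:144989315-145050913, minus strand). It was at 37.9, 46.4 and 44.9 FPKM in iEV and at 52.3, 90 and 86.6 FPKM in iGLI2 replicates 1, 2 and 3. All iGLI2 values exceeded all iEV values, but iGLI2 replicate 1 was only a little above the highest iEV library. At 0.78 (SE 0.22), the log2 fold change missed the threshold (limma adjusted p = 0.0548). Without iGLI2 replicate 1 it was 1.02 (adjusted p = 0.00317), and with the GC trend removed 0.73 (adjusted p = 0.023). PLEC passed in 8 of 14 other settings of the fit, and with a library left out only without iGLI2 replicate 1.

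DST encodes dystonin, whose epithelial form is the bullous pemphigoid antigen of the hemidesmosome plaque. Its deposited locus is chr6:56137689-56819426 (minus strand), which may reach beyond the gene. The table gives 1 value for the gene, so its epithelial and other forms cannot be told apart. It had the lowest level of the 9, with 7.78, 9.21 and 10.2 FPKM in iEV and 8.2, 9.93 and 9.64 FPKM in iGLI2 replicates 1, 2 and 3. The groups overlap throughout. Its log2 fold change, 0.03 (SE 0.12, limma adjusted p = 0.878), was small, and the sign changed when iEV replicate 1 or iGLI2 replicate 2 was left out.

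Of these chains of laminin-332, LAMA3 fell and LAMB3 rose. LAMA3 encodes the α3 chain, which carries the integrin-binding end of the trimer (chr18:21269407-21535029, plus strand). It was at 70.2, 72.4 and 73.7 FPKM in iEV and at 45.7, 47.2 and 47.1 FPKM in iGLI2 replicates 1, 2 and 3. All iGLI2 libraries were lower, and the libraries within each group were close together. It fell by 35.3%, to 46.7 ± 0.857 FPKM in iGLI2 against 72.1 ± 1.78 FPKM in iEV cells (SD, n = 3 each; log2 fold change -0.62, SE 0.053, limma adjusted p = 0.00112). This call held with each library left out in turn. There is 1 value for the whole gene, so transcripts from its different starts cannot be told apart.

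LAMB3 encodes the β3 chain, known from laminin-332 (chr1:209788218-209825820, minus strand). It was at 51.4, 64.9 and 64 FPKM in iEV and at 82, 111 and 111 FPKM in iGLI2 replicates 1, 2 and 3. Replicate 1 was the lowest of its group on both sides, and the groups do not overlap. LAMB3 rose 1.69-fold, to 101 ± 16.7 FPKM in iGLI2 against 60.1 ± 7.53 FPKM in iEV cells (SD, n = 3 each; log2 fold change 0.74, SE 0.15, limma adjusted p = 0.022). The call was lost when any library other than iGLI2 replicate 1 was left out (highest adjusted p = 0.0826) and kept without that library (log2 fold change 0.88, adjusted p = 0.00687).

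LAMA5 encodes the α5 chain of other epithelial laminins (chr20:60884116-60942368, minus strand). It was at 37.3, 43.3 and 43.7 FPKM in iEV and at 47.3, 83.7 and 85.6 FPKM in iGLI2 replicates 1, 2 and 3. The iGLI2 libraries were all higher, with replicate 1 close to the iEV libraries. The log2 fold change of 0.74 (SE 0.24) missed the threshold (limma adjusted p = 0.0764). It was 1.02 without iGLI2 replicate 1 (adjusted p = 0.00207) and 0.70 with the GC trend removed (adjusted p = 0.0327).

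The stretches before the annotated starts of LAMA3 and LAMB3 are shown because these genes encode 2 chains of 1 trimer and moved in opposite directions. The sequences are RefSeq's, on GRCh38.p14, 250 bases upstream of a start and read along the gene's strand. Capitals mark matches to TGANTCA, where N is any base, a loose form of the site of AP-1 factors. The LAMA3 start lies 183567 bases inside the gene, and the window is chr18:23872770-23873019 on the plus strand. For LAMB3, on the minus strand, the window before the outermost start is chr1:209652426-209652675, and that before an inner start, 1051 bases further in, is chr1:209651375-209651624.
LAMA3: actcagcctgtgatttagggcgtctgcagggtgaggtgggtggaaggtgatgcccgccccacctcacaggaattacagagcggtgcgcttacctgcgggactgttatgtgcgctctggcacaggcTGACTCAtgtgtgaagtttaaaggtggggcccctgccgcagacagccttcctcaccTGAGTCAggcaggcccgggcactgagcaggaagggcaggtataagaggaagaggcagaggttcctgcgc
LAMB3 outer: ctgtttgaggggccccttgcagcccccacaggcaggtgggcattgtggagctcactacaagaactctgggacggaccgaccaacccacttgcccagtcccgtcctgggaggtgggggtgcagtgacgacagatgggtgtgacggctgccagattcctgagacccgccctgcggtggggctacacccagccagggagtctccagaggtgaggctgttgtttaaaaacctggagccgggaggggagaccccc
LAMB3 inner: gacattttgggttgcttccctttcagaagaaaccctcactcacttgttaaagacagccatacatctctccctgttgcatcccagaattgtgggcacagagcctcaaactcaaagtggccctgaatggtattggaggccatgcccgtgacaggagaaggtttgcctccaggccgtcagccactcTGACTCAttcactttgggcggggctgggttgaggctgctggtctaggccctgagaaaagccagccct
The LAMA3 window held 2 such matches, TGACTCA from position -125 and TGAGTCA from position -69, where -1 is the base before the start. The inner LAMB3 window held TGACTCA from position -67, and the outer one held none. Thus the gene that fell and the gene that rose both had the letters in a window. RefSeq windows were found for 6 of the 9 genes (not ITGB4, ITGA3 and PLEC), 11 in all, since some genes have several starts. TGANTCA was in 2 of these 11 and in 6.57% of the 35116 windows of the whole table, on either strand. GACCACCCA, a consensus site of GLI factors, was in 0 of the 11 and in 0.199% of all windows. A match is a run of letters and not a shown binding site, and which start YAPC cells use was not measured.

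ITGA3 and ITGA2, which encode α chains that pair with β1, rose as well. ITGA3 encodes integrin α3, the receptor that binds laminin-332 outside hemidesmosomes (chr17:48133340-48167849, plus strand). It was at 117, 133 and 128 FPKM in iEV and at 213, 323 and 328 FPKM in iGLI2 replicates 1, 2 and 3. Every iGLI2 library was higher, with replicate 1 the lowest of them. ITGA3 rose 2.28-fold, to 288 ± 65 FPKM in iGLI2 against 126 ± 8.52 FPKM in iEV cells (SD, n = 3 each; log2 fold change 1.16, SE 0.18, limma adjusted p = 0.00814). The value was between 1.05 and 1.36 with each library left out in turn, and each of these passed.

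ITGA2 encodes the α2 chain of the collagen receptor α2β1, which also binds laminin (chr5:52285156-52390609, plus strand). Its values were 53.8, 51.6 and 52.1 FPKM in iEV and 96.8, 96.1 and 95.3 FPKM in iGLI2 replicates 1, 2 and 3. The libraries of each group were within a few FPKM, and replicate 1 did not stand apart. ITGA2 rose 1.83-fold, from 52.5 ± 1.13 to 96 ± 0.748 FPKM (SD, n = 3 each). At a log2 fold change of 0.86 (SE 0.052), it had the smallest p of the 9 (limma adjusted p = 0.000398).

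**Figure D2:**
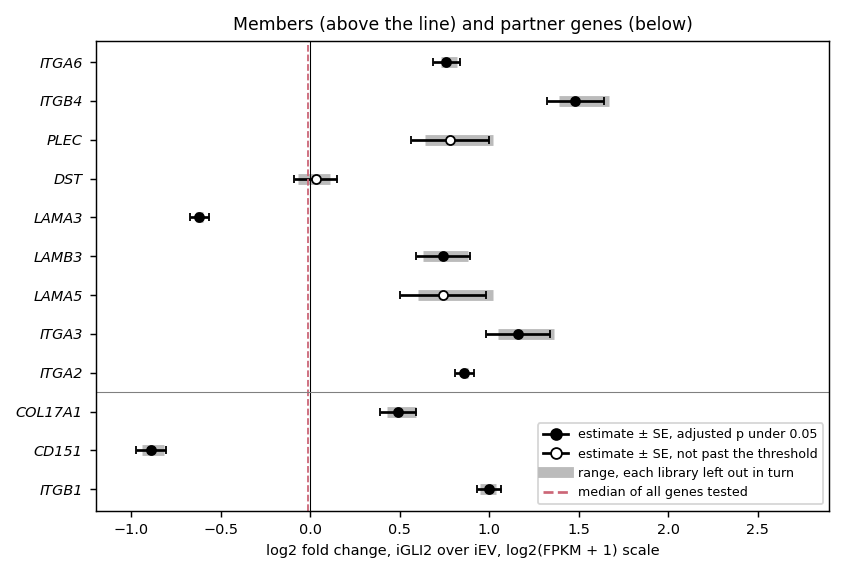
Log2 fold change of iGLI2 over iEV on the log2(FPKM + 1) scale (horizontal axis) for the 9 genes and 3 partner genes; points with whiskers are the estimate and its standard error, filled where the adjusted p is under 0.05, grey bands the range with each library left out in turn, and the dashed line the median of all genes tested. LAMA3 at -0.62 and CD151 at -0.89 lie left of 0, DST has whiskers that span 0, and the other 9 lie to the right.

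The partners of these genes were read from the same test. ITGB1, the β1 chain shared by integrins α3β1 and α2β1, was at 273, 265 and 270 FPKM in iEV and at 578, 531 and 514 FPKM in iGLI2 replicates 1, 2 and 3, without overlap. It rose 2.01-fold (log2 fold change 1.00, SE 0.067, limma adjusted p = 0.000554). COL17A1 encodes collagen XVII, the transmembrane collagen of the hemidesmosome. It was low, at 3.11, 3.37 and 3.55 FPKM in iEV and 4.33, 5.58 and 5.45 FPKM in iGLI2 replicates 1, 2 and 3, and rose (log2 fold change 0.49, SE 0.10, limma adjusted p = 0.0216). That call was lost when any library other than iGLI2 replicate 1 was left out (highest adjusted p = 0.0826). CD151, the tetraspanin that binds α3 and α6 integrins, went the other way, from 268, 271 and 241 FPKM in iEV to 128, 145 and 148 FPKM in iGLI2 replicates 1, 2 and 3. It fell by 46.1% (log2 fold change -0.89, SE 0.085, limma adjusted p = 0.00156). KRT5 and KRT14, the basal keratins that hemidesmosomes hold in skin, were under 1 FPKM on average and were not tested.

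The order of the levels differed between the groups. In iEV cells it was ITGA3, ITGA6, LAMA3, LAMB3, ITGA2, ITGB4, PLEC, LAMA5 and DST, from 126 down to 9.07 FPKM. LAMB3 and ITGA2, ITGB4 and PLEC, and PLEC and LAMA5 were neighbours whose libraries overlapped. In iGLI2 cells it was ITGA3, ITGA6, ITGB4, LAMB3, ITGA2, PLEC, LAMA5, LAMA3 and DST, from 288 down to 9.26 FPKM. There ITGB4 overlapped with LAMB3, LAMB3 with ITGA2, and PLEC with LAMA5. LAMA3 went from rank 3 to rank 8 and ITGB4 from rank 6 to rank 3. In iEV cells 8 of the 9 had levels above those of 81.6% to 94.5% of all genes tested, and DST above 43.8%.

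Ratios between subunits within a library do not depend on how the library was scaled, and 7 are given. They can still carry the GC trend where the genes differ in GC content. With 3 libraries against 3, the smallest p of the two-sided exact permutation test is 0.1, so none can pass. Of the 7 ratios, 6 reached that p (0.117 after Benjamini-Hochberg adjustment over the 7). Several ratios share a gene, so they are not separate results, and the members were chosen with earlier results known. The share among ratios of other gene pairs was not computed. Of single genes tested, 42.0% had groups that did not overlap. ITGB4/ITGA6 was 0.449, 0.496 and 0.484 in iEV and 0.613, 0.862 and 0.935 in iGLI2 replicates 1, 2 and 3, without overlap. There was thus less than 1 ITGB4 fragment per ITGA6 fragment, length for length, in each library, and the gap between them was narrower in iGLI2 cells (log2 difference 0.73). LAMA3/LAMB3 was 1.36, 1.12 and 1.15 in iEV and 0.557, 0.426 and 0.424 in iGLI2 replicates 1, 2 and 3. LAMA3 was the higher of the pair in every iEV library and the lower in every iGLI2 library.

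LAMA5/LAMA3 went from 0.574 ± 0.037 to 1.54 ± 0.439 (SD, n = 3 each). It was 1.04, 1.77 and 1.82 in iGLI2 replicates 1, 2 and 3. The GC content is 66.4% for LAMA5 and 50.7% for LAMA3, so the ratio may carry the GC trend, and which transcript was higher is uncertain. With the GC trend removed the log2 difference was 1.30, against 1.38. LAMA5 itself was not called (limma adjusted p = 0.0764). PLEC/ITGB4 went from 0.922 ± 0.113 to 0.56 ± 0.0418, and DST/PLEC from 0.21 ± 0.0149 to 0.126 ± 0.0265 (SD, n = 3 each), both without overlap. The β1-binding chains were also set against their shared partner, with log2 differences of -0.13 for ITGA2/ITGB1 and 0.16 for ITGA3/ITGB1. The ITGA3/ITGB1 difference was 0.415 without iGLI2 replicate 1 and 0.017 without iGLI2 replicate 3, so its size rests on single libraries, and that of ITGA2/ITGB1 was -0.081 without replicate 1 of both groups. ITGA2/ITGB1 was 0.195 ± 0.00209 in iEV and 0.178 ± 0.00941 in iGLI2 cells (SD, n = 3 each). ITGA3/ITGB1 was 0.427, 0.502 and 0.474 in iEV and 0.368, 0.607 and 0.638 in iGLI2 replicates 1, 2 and 3, and overlapped (exact permutation p = 0.6).

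**Figure D3:**
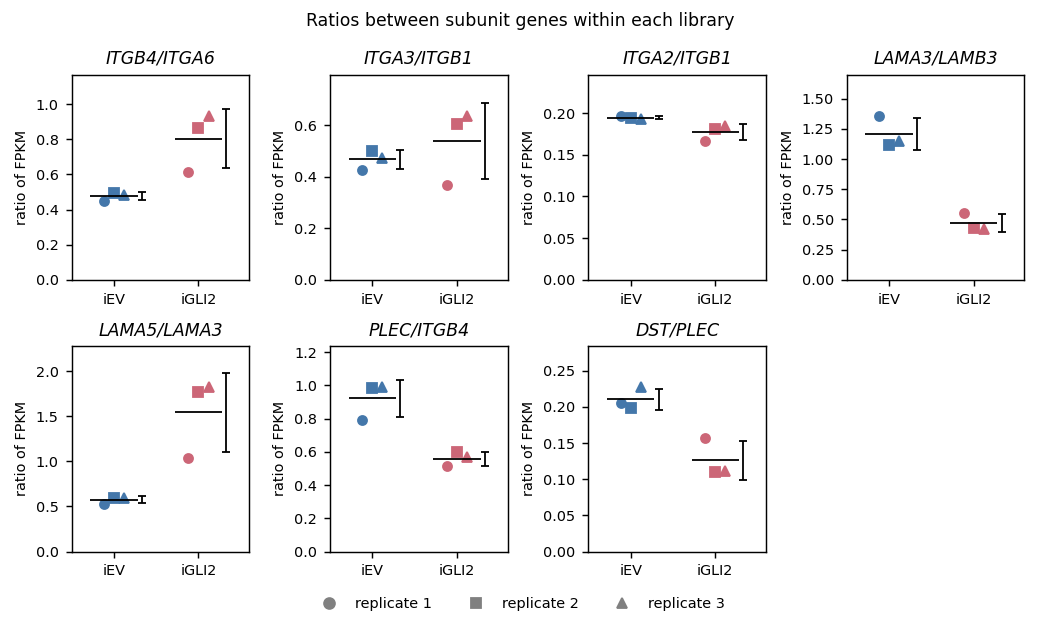
Ratio of the FPKM of 2 genes within each library (vertical axes, from 0) for 7 pairs; symbols mark replicates, bars the mean and whiskers the SD over 3 libraries. LAMA3/LAMB3 is above 1 in every iEV and below 1 in every iGLI2 library, and only ITGA3/ITGB1 overlaps between groups.

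The spread within the iGLI2 group divided the 9 genes along GC content. ITGB4, ITGA3, LAMB3, LAMA5 and PLEC have a GC content between 58.9% and 67% in their longest transcript, and in these the ratio of iGLI2 replicate 1 to the mean of replicates 2 and 3 lay between 0.559 (LAMA5) and 0.739 (LAMB3). ITGA6, ITGA2, LAMA3 and DST have between 40.1% and 50.7%, and the ratio lay between 0.838 (DST) and 1.01 (ITGA2). GLI2 (GC content 61.5%) had a ratio of 0.47. In iEV libraries the same ratio was 0.798 for LAMB3, 0.831 for PLEC and 1.04 for ITGB4, so the division was less clear there. Replicate 1 of the iGLI2 cells thus had a lower GLI2 value and lower values of GC-rich genes at once. GLI2 is itself GC-rich, so whether its transcript was lower apart from the GC trend was not tested. The parts of GLI2 level and GC content in the results cannot be told apart. With the GC trend removed, 7 of the 9 genes passed as higher and LAMA3 as lower, where 12% and 14.8% of all genes tested did so. In that setting the log2 fold changes were 1.48 for ITGB4, 1.18 for ITGA3 and 0.77 for LAMB3. Without replicate 1 of both groups the same 7 passed as higher, where 21.3% of all genes tested did so, a setting chosen after seeing the data like the GC trend.

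**Figure D4:**
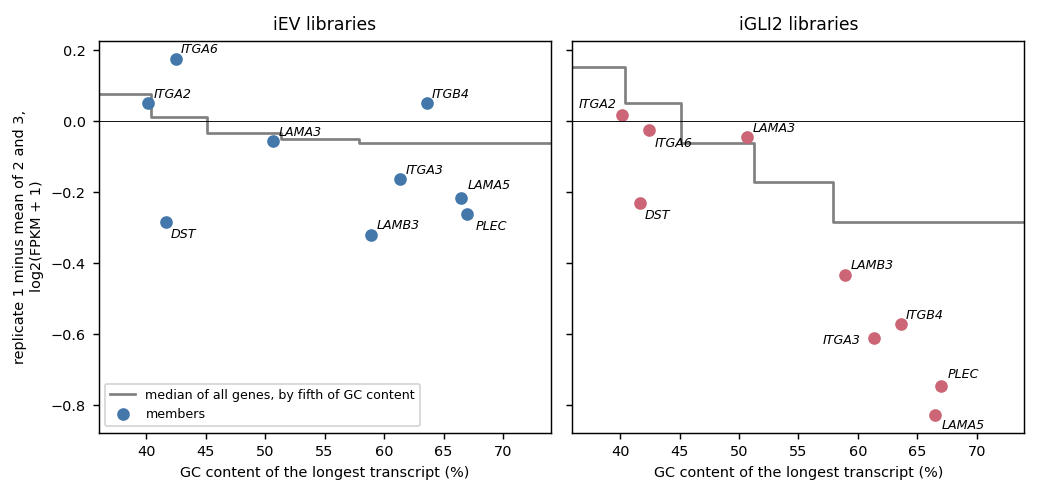
Replicate 1 minus the mean of replicates 2 and 3 on the log2(FPKM + 1) scale (vertical axis) against the GC content of the longest transcript (horizontal axis, %), for iEV (left) and iGLI2 libraries (right); points are the 9 genes and the grey line the median of all genes tested in each of 5 bins of GC content. In iGLI2 libraries the line falls from 0.153 to -0.283. The 5 GC-rich genes lie below it, and so do ITGA6, ITGA2 and DST, while LAMA3 lies slightly above it.

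Related genes were read from the same test, by lists. The counts stand beside 21.9% of all genes tested that passed, 10.1% as higher and 11.8% as lower, and no list was tested as a set. Of 8 other laminin chains 4 were tested and 1 passed, LAMA4, the α4 chain of mesenchymal and vascular laminins. It rose from 1.39, 1.5 and 1.72 FPKM in iEV to 3.73, 5.34 and 5.06 FPKM in iGLI2 replicates 1, 2 and 3 (log2 fold change 1.16, limma adjusted p = 0.00283). Of 21 other integrin subunits 9 were tested, with 1 higher and 1 lower. The others had a mean under 1 FPKM and were not tested. Among them ITGB3 was at 0.112, 0.226 and 0.217 FPKM in iEV and at 1.16, 1.9 and 1.48 FPKM in iGLI2 replicates 1, 2 and 3. ITGA5, the α5 chain of the fibronectin receptor, rose from 1.67 ± 0.497 to 5.03 ± 1.51 FPKM (SD, n = 3 each; log2 fold change 1.16, limma adjusted p = 0.0199), and was called without iGLI2 replicate 1 but in no other fit with a library left out. ITGB6, the β6 chain of the epithelial receptor αvβ6, fell from 26.2 ± 1.92 to 18 ± 1.48 FPKM (SD, n = 3 each; log2 fold change -0.52, limma adjusted p = 0.0105), and passed in 3 of 6 fits with a library left out.

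All 5 other plakins were tested. Of the 3 that link desmosomes or the cornified envelope to keratins, PPL (periplakin) rose (log2 fold change 0.59, limma adjusted p = 0.036) and EVPL (envoplakin) and DSP (desmoplakin) fell (-0.59, adjusted p = 0.00787, and -0.25, adjusted p = 0.0422). MACF1 and EPPK1 did not pass. With each library left out in turn, PPL passed in 1 and DSP in 0 of 6 fits, and EVPL in all 6. With the digit of the library codes as a block, PPL (adjusted p = 0.0557) and DSP (0.0778) lost their calls. DSP also lost its call with the replicate number as a block (0.0521). Of 14 other settings of the fit, PPL passed in 13 and DSP in 9.

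Of 16 other basement membrane components 10 were tested, and 4 rose and 0 fell. COL7A1, the collagen of the anchoring fibrils that lie under hemidesmosomes, had less than 1 FPKM in each iEV library and 4.95, 8.64 and 7.31 FPKM in iGLI2 replicates 1, 2 and 3 (log2 fold change 2.49, limma adjusted p = 0.000706). NTN4, a netrin that binds laminin, rose 3.3-fold, from 14.1 ± 0.559 to 46.5 ± 1.97 FPKM (SD, n = 3 each; log2 fold change 1.65, limma adjusted p = 0.000131). COL4A1 (0.62, adjusted p = 0.00509) and NID1 (0.38, adjusted p = 0.0244), a collagen IV chain and nidogen, rose less. With each library left out in turn NID1 passed in 2 of 6 fits, and the other 3 in all 6.

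Of 8 laminin receptors and processing enzymes 7 were tested, and 4 rose and 2 fell. The metalloproteinase MMP2 rose from 0.669 ± 0.0736 to 5.68 ± 1.76 FPKM and BCAM, a receptor of the laminin α5 chain, from 12.8 ± 1.19 to 35 ± 11.2 FPKM (SD, n = 3 each; log2 fold changes 1.96 and 1.33, limma adjusted p = 0.0023 and 0.0155). CD44 and MMP14 also rose, by log2 fold changes of 0.86 and 0.44 (limma adjusted p = 0.00138 and 0.0134). RPSA, a ribosomal protein also named as a laminin receptor, fell by 28.7% (log2 fold change -0.48, limma adjusted p = 0.0202). BMP1, a protease that trims laminin chains, was the other that fell (-0.38, limma adjusted p = 0.0114). With each library left out in turn, BCAM and RPSA each passed in 2 and MMP14 in 3 of 6 fits, and MMP2 and CD44 in all 6. BCAM passed only narrowly without iEV replicate 1, at a limma adjusted p that rounds to 0.05. RPSA lost its call under quantile normalization (adjusted p = 0.0686).

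Of 16 genes that join integrins to actin 14 were tested, with 2 higher, 3 lower and 9 not passing. ZYX (zyxin) rose 2.2-fold (log2 fold change 1.08, limma adjusted p = 0.0236), and FERMT1 (kindlin-1) rose by 0.21 on that scale (limma adjusted p = 0.0494). ILK, the integrin-linked kinase, fell from 62.8 ± 2.33 to 33.2 ± 2.41 FPKM, and its binding partner PARVA (parvin) from 19.2 ± 0.59 to 11.3 ± 1.35 FPKM (SD, n = 3 each; log2 fold changes -0.90 and -0.72, limma adjusted p = 0.00094 and 0.00371). TNS4, a tensin, was at 156, 85.1 and 89.2 FPKM in iEV and at 61.3, 32.9 and 40.7 FPKM in iGLI2 replicates 1, 2 and 3 (log2 fold change -1.26, limma adjusted p = 0.0367), and replicate 1 was the highest in both groups. With each library left out in turn, TNS4 passed in 1, ZYX in 2 and FERMT1 in 0 of 6 fits, and ILK and PARVA in all 6. The TNS4 call was also lost with the GC trend removed (log2 fold change -1.23, adjusted p = 0.055). With the digit of the library codes as a block, TNS4 (adjusted p = 0.059) and FERMT1 (0.075) lost their calls. Of 14 other settings of the fit, TNS4 passed in 10 and FERMT1 in 6.

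**Figure D5:**
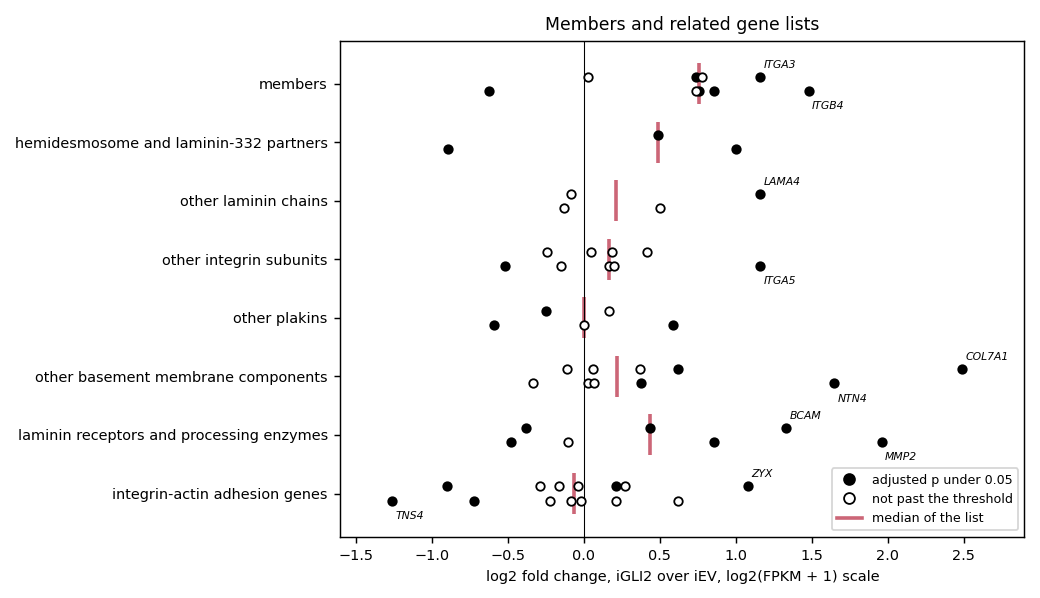
Log2 fold change of iGLI2 over iEV on the log2(FPKM + 1) scale (horizontal axis) for each tested gene of the 9 genes and 7 related lists (rows); filled points have an adjusted p under 0.05, and red bars are list medians. The median is 0.76 for the 9 genes and between -0.06 and 0.49 for the other lists.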

How the data were processed

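RNA of YAPC-iEV and YAPC-iGLI2 cells (3 libraries each, grouped and numbered by their labels) was sequenced. Per the labels and methods, the authors used Trimmomatic for trimming, TopHat2 for alignment (build hg19) and Cuffdiff 2.1.1. The deposited values were taken as FPKM that the authors made with Cuffdiff; the table itself names no unit. Gene annotation, strand and scaling between libraries are not given in the sources used here. The library codes in the labels hold a digit, 1 for replicates 1 and 2 and 2 for replicate 3 of each group, whose meaning is not given. A letter follows the digit, A, B and A in iEV and A, B and B in iGLI2 replicates 1, 2 and 3. Its meaning is not given either. There were 0 value columns without a sample. The hg19 positions of genes are the loci given with the deposited values, which can span more than the gene.

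Of 27024 entries, 1252 outside the primary chromosomes and 330 lower duplicates of a name were dropped. Testing was on the log2(FPKM + 1) scale, for the 12493 genes whose mean reached 1 FPKM, by limma 3.58.1 under R 4.3.3 (condition only, intensity trend, two-sided, Benjamini-Hochberg, threshold 0.05). The added 1 understates folds of low genes. Ratios were compared with the exact permutation test in scipy 1.17.1. Lengths and GC content came from GENCODE release 44 on GRCh37 (11505, or 92.1%, of the genes tested, to which those fits were limited). The fit was tested on simulated data. One partner gene and a ratio with it are not reported here. The members and lists were chosen with earlier results of these data known. Named genes are the 9 members, COL17A1, CD151, ITGB1 and GLI2. Added to them are, per list, at most the 5 called genes with the largest change whose groups do not overlap. BMP1, ITGB3 and the motifs were chosen after values were seen. Alternatives were other scalings, pseudocounts, filters, thresholds and moderation, blocks, length and GC trends (splines of 4 degrees of freedom) and each library left out.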

Additional observations from a re-analysis of the deposited data

How the results depend on the processing

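With each library left out in turn, ITGB4, ITGA3, ITGA2, ITGA6 and LAMA3 kept their calls, and the genes called over the whole table numbered between 608 and 1855 higher and between 615 and 1898 lower, against 1262 and 1480. LAMB3 kept its call under the 14 other settings of the fit. PLEC passed in 8 and LAMA5 in 6 of these 14. Genes called higher numbered 824 with a mean of at least 5 FPKM (fewer genes tested), 540 at an adjusted p under 0.01 and 324 with at least 2-fold, and those called lower 555 and 203 in the last 2. With at least 2-fold, 2 of the 9 members were higher and 0 lower. Without replicate 1 of both groups 2661 were higher and 2806 lower, and with GC and length trends removed and the replicate block 1993 and 2414; the cause was not tested.

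The log2 fold change of DST turned to -0.065 without iEV replicate 1 and to -0.017 without iGLI2 replicate 2. Over the 6 fits that leave out a library, it ran from -0.065 to 0.111, and DST passed in no setting. The 7 ratios kept their direction in each setting run for them (a pseudocount, the replicate block, length and GC trends, and replicate 1 of both groups or a single library left out). With the digit of the library codes as a block, 2084 genes were called against 2742, and the members called were 5 higher and 1 lower. Same-numbered replicates deviated together with correlations of 0.204, 0.0919 and 0.0276. For iGLI2 replicates 1 and 2 the same-numbered iEV replicate gave the highest correlation, but iGLI2 replicate 3 correlated better with iEV replicate 2 (0.117). Whether the numbers pair the libraries is not given in the sources used here, and the main fit does not pair them. With the replicate block 1809 genes were higher and 2119 lower, and 7 members were higher and 1 lower, PLEC (adjusted p = 0.0181) and LAMA5 (0.0316) added. Reads per gene are unknown, so counting error could not be given.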
